A study of Mus musculus with 56 samples.

Results

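The circadian clock of the liver is a transcriptional feedback loop, and 10 of its genes were followed here by RNA sequencing across the livers of 56 male C57BL/6J mice. The 10 genes were chosen by symbol, without use of their values: the activators Clock and Npas2, the repressors Per1, Per2, Per3 and Cry1, the nuclear receptors Nr1d1 and Nr1d2, and the output factors Dbp and Tef. Each matched 1 row of the 21935 genes counted, and all 10 were among the 14105 genes that had 5 or more reads in 3 or more mice. Only Npas2 came near that limit, with 5 or more reads in 12 mice, of which 4 were combination mice and 8 belonged to other groups.

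The study compared a long-acting FGF21 analogue, zalfermin, with the GLP-1 receptor agonist semaglutide in diet-induced obese mice with metabolic dysfunction-associated steatohepatitis (DIO-MASH), and asked what a combination of low doses did. Mice arrived at 5 to 6 weeks of age and ate chow or the AMLN diet, a fatty feed with added fructose and cholesterol, for 36 weeks before 8 weeks of daily subcutaneous dosing. Each of the 7 groups held 8 sequenced mice: chow-fed mice given vehicle, and DIO-MASH mice given vehicle, zalfermin at 0.05 mg/kg (low dose) or 0.2 mg/kg (high dose), semaglutide at 3 µg/kg (low dose) or 120 µg/kg (high dose), or zalfermin at 0.05 mg/kg with semaglutide at 3 µg/kg (combination). DIO-MASH mice had entered the study only if a biopsy showed steatosis and fibrosis, and the chow group was not selected in that way. The sources used here give the doses of the combination differently, and the doses of the published methods are used.

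In the core loop, CLOCK or its paralogue NPAS2 pairs with BMAL1 (the product of Arntl) and switches on the Per and Cry genes through E-boxes, and PER and CRY proteins then block their own activators. The same pair drives Nr1d1 and Nr1d2, whose products (REV-ERB alpha and beta) repress Arntl, Npas2, Cry1 and Nfil3 through ROR elements, where ROR receptors activate. Dbp and Tef encode PAR bZIP factors that act on D-boxes and pass the rhythm on to genes of metabolism and detoxification, against the repressor encoded by Nfil3. In rodent liver these RNAs rise and fall over the day in a fixed order, and Arntl, Npas2 and Cry1 peak at other hours than Nr1d1 and Dbp, so the level in a liver depends on the hour at which it was taken and on feeding time.

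The hour of sampling of each mouse was not given in the sources used here, and the housing had a fixed light-dark cycle. Sample numbers in the labels were split here at gaps into 4 runs, called number series A (22 mice), B (15), C (16) and D (3). The labels do not name these runs, and smaller gaps also lie inside A and C. All 4 are used below. What the runs stand for is not stated, nor whether they follow the order of handling or sampling. Series A, B and C each held mice of all 7 groups, and D held 2 chow mice and 1 DIO-MASH vehicle mouse. Library totals ran from 5228187 to 20885786 reads (median 12206788). Expression is given as CPM, counts per 1000000 reads of a library size scaled by TMM. Groups were compared with the quasi-likelihood test of edgeR, p-values were adjusted over all 14105 genes by the Benjamini-Hochberg method, and a gene is called higher or lower when its adjusted p is under 0.05. Whole liver was sequenced, so fewer cells of a type and less RNA per cell cannot be told apart.

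Promoter sequence is shown for the members in which a clock element was found, since these are the DNA contacts of the loop just described. RefSeq promoter windows on GRCm38.p6, from 250 bases before to 50 bases after the gene start, were searched on both strands for the E-box CACGTG, the D-box TTATGTAA, the ROR core TAGGTCA and the cAMP response element TGACGTCA. There were 13 windows for the members, with more than 1 start for Clock, Per1 and Tef, and Per2 was not in the table. Capitals mark the motif in each sequence, written 5′ to 3′ on the strand of the gene. The 4 windows below are Per1 (chr11:69098699-69098998, plus strand), Cry1 (chr10:85185005-85185304, minus strand), Tef (chr15:81802423-81802722, plus strand) and Per3 (chr4:151044616-151044915, minus strand).
Per1: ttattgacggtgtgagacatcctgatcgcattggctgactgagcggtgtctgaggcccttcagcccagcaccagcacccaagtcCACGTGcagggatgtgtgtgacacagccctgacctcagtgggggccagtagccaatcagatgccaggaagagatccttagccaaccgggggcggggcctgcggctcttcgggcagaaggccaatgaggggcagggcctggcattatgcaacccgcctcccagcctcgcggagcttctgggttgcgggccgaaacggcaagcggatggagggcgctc
Cry1: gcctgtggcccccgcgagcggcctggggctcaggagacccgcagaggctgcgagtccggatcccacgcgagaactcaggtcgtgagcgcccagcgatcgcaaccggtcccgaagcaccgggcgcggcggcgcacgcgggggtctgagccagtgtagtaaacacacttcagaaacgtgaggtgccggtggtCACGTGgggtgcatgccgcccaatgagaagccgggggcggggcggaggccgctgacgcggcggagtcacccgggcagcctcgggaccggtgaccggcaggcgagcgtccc
Tef: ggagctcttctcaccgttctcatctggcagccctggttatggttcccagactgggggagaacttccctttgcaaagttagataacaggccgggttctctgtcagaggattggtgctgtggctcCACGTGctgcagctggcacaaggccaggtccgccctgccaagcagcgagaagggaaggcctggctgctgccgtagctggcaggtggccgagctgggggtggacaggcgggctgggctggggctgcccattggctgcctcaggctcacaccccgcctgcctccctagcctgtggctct
Per3: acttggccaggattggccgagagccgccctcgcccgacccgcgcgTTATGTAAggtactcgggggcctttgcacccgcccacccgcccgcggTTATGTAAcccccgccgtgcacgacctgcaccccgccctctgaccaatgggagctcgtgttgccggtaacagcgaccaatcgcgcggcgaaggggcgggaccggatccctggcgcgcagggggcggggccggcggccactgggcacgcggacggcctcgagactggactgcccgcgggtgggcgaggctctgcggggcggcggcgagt

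The E-box began 166 bases before the start in Per1, 60 bases before it in Cry1 and 127 bases before it in Tef, and the window of the second Tef start (chr15:81811164-81811463) held one 138 bases before it. Per3 held D-boxes 205 and 158 bases before its start. An E-box stood in 4 of the 13 member windows and in 7.15% of all 32851 windows, and a D-box in 1 of 13 and in 0.938% of all. The ROR core (2.61% of all windows) and the cAMP response element (1.79%) were in none of the 13. These are matches of letters in a short window and not sites of binding.

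Levels can be compared between genes only per length of transcript, as CPM per kb of merged exon. On that scale Dbp was the most abundant member, with 50.2 ± 21.8 CPM per kb (mean ± SD over 56 mice), followed by Nr1d1 at 24.8 ± 13.9, Tef at 21.9 ± 5.92 and Nr1d2 at 15.7 ± 4.201, whose spreads overlapped. Per1 (5.54 ± 1.63), Per2 (3.81 ± 1.09), Cry1 (3.42 ± 2.63), Clock (1.92 ± 0.471) and Per3 (1.19 ± 0.435) formed a lower tier, and Npas2 was nearly silent at 0.0719 ± 0.198. Dbp, Nr1d1 and Tef share exon sequence with a gene on the other strand, and whether reads were counted by strand is not stated. Nr1d1 (chr11:98767932-98775333, minus strand) shares 263 exon bases with Thra, and Dbp (chr7:45705088-45710203, plus strand) shares 539 with Sphk2, and Tef (chr15:81802421-81826863, plus strand) shares 193 with Gm17597. Thra was at 11.96 to 25.4 CPM in all but 3 mice singled out below and Sphk2 at 26.4 to 60.3 CPM, ranges narrower than those of Nr1d1 and Dbp.

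Several members varied far more between mice of 1 group than most liver genes do. The SD of log2 CPM within groups was 0.986 for Nr1d1, which exceeded that of 98.2% of the genes tested, 0.917 for Npas2 (97.3%) and 0.878 for Dbp (96.6%), against a median of 0.305 over all genes. Cry1 (0.651), Per3 (0.596) and Nr1d2 (0.587) lay above 84.1%, 78.6% and 77.6% of genes. Tef (0.395), Per2 (0.391) and Per1 (0.372) lay above 61.5%, 61.1% and 59.0%, and Clock (0.311) above 50.9%. For Npas2, Per1, Per3, Cry1, Nr1d1, Nr1d2, Dbp and Tef the group with the largest spread was the combination. Clock and Per2 had their largest spread in the chow group.

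**Figure D1:**
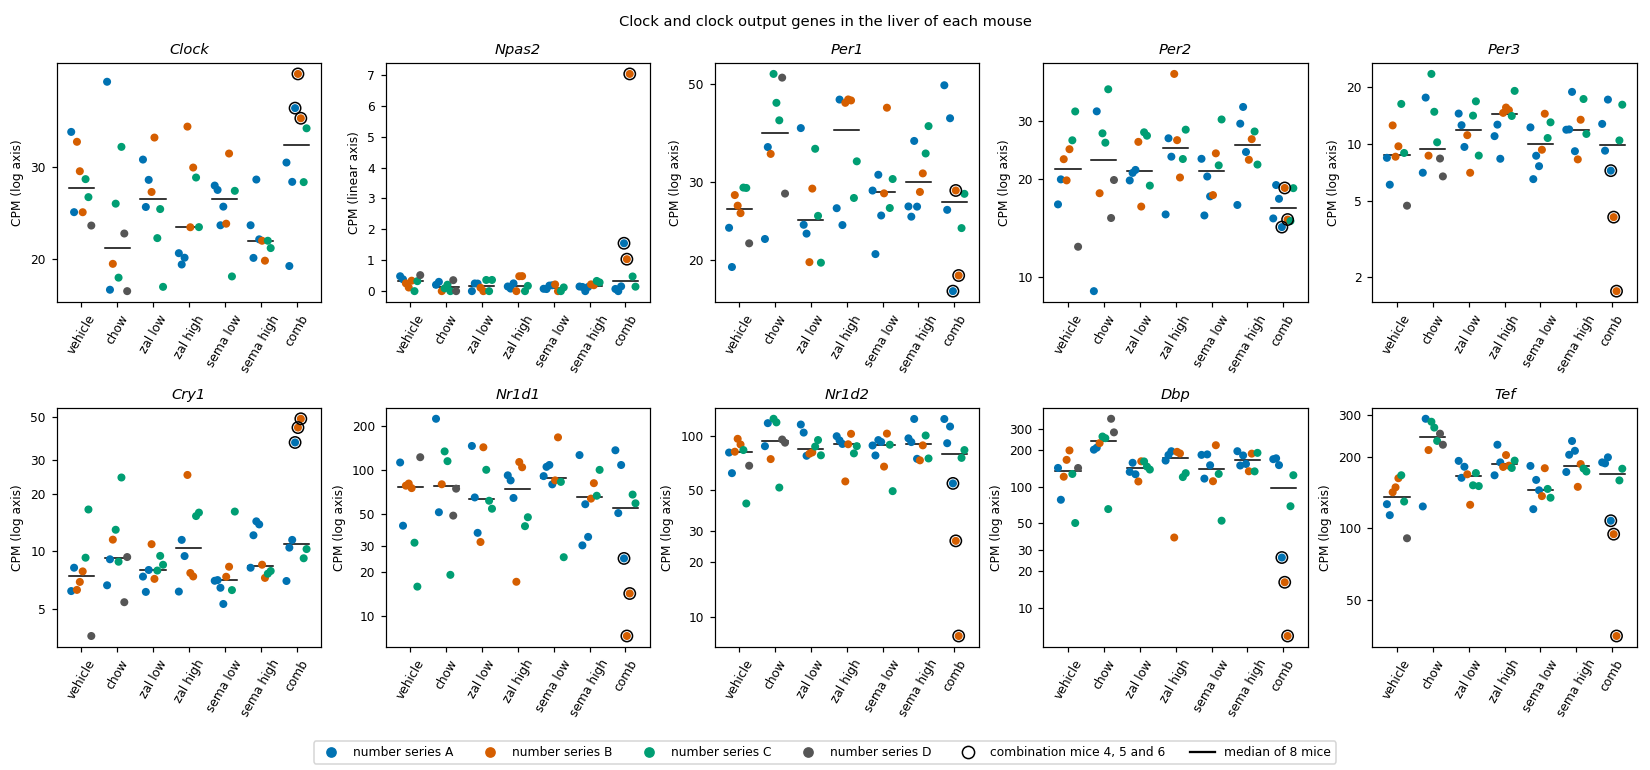
CPM of each gene in each of the 56 mice, by group (8 mice each), coloured by number series, with a bar at the group median and a log axis except for Npas2. Combination mice 4, 5 and 6 (ringed) lie above all other mice for Cry1 and Npas2 and below all others for Dbp.

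Combination mice 4, 5 and 6 stood apart from the rest in several members. Mouse 4 belonged to series A, and mice 5 and 6 were the only combination mice of series B. Their libraries held 17810943, 10497934 and 8383183 reads, within the range of the others. The calls on the members in the combination are therefore given with all 8 mice and again without these 3. This choice was made after their values had been seen. Leaving out the highest or lowest mice of a gene moves its difference by construction, and it cuts the group to 5 mice. The fits without these 3 mice thus describe how much their values weigh, and cannot test the calls. The DESeq2 fits and the fits of only 2 groups used all 8.

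Cry1, a repressor that normally peaks late in the cycle, was at 36.96, 44.2 and 49.1 CPM in mice 4, 5 and 6, against 7.02 to 11.5 CPM in the other 5 combination mice and 3.63 to 25.04 CPM in the 48 mice of other groups. Npas2 gave 25, 10 and 54 reads in these mice (1.55, 1.03 and 7.03 CPM) and never more than 9 reads in the other 53, of which 13 had none. A count of 0 in those 13 libraries allows up to 3 reads, or 0.195 to 0.652 CPM. The 3 mice were thus the highest of all 56 for both genes.

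Members of the opposite arm were low in the same animals. Dbp was at 25.98, 16.2 and 5.86 CPM in mice 4, 5 and 6, where the other 53 mice ranged from 37.99 to 362 CPM. Nr1d1 was at 24.9, 7.35 and 14.3 CPM against 50.7 to 136 CPM in the other 5 combination mice. Nr1d2 was at 54.7, 26.3 and 7.82 CPM against 75.7 to 124 CPM. In the 48 mice of other groups Nr1d1 ranged from 15.96 to 223 CPM and Nr1d2 from 42.3 to 125 CPM. Mouse 4 lay within both of these ranges, and mice 5 and 6 lay below them. Mouse 6 was the most extreme of the 56 for Nr1d2, Dbp, Tef (35.3 CPM) and Per3 (1.69 CPM). Clock was at 38.8, 45.1 and 37.1 CPM against 19.4 to 35.5 CPM in the other 5. Only mouse 5 exceeded the 17.4 to 43.6 CPM of Clock in the other groups. Per1 was at 17.1, 28.8 and 18.5 CPM against 23.7 to 49.7 CPM in the other 5. Mice 4 and 6 lay below the 19.3 to 52.7 CPM of Per1 in the other groups, and mouse 5 lay within it. Per2 set these mice apart least, with 14.2, 18.7 and 15.0 CPM against 14.8 to 19.1 CPM in the other 5.

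Of the 13 other core clock genes tested, 4 lay outside the range of the other groups in each of these 3 mice. Cry2, Rora, Bhlhe40, Arntl2, Csnk1d, Csnk1e and Btrc lay within it in all 3. Arntl, the partner of Clock and Npas2, was at 14.8, 17.6 and 24.4 CPM against 0.208 to 5.15 CPM in all other mice. Ciart, a repressor driven by the loop, was at 0.310, 0.828 and 0 CPM against 1.57 to 22.2 CPM, and Bhlhe41, another E-box repressor, at 1.24, 1.76 and 0.912 CPM against 2.24 to 13.7 CPM. Nfil3, the antagonist of the PAR bZIP factors, was at 37.1, 31.98 and 60.2 CPM against 12.5 to 23.2 CPM in the other 5 combination mice and up to 32.9 CPM in other groups. Hlf, the third PAR bZIP factor, was at 60.7, 87.2 and 61.1 CPM, on either side of the 62.6 to 79.9 CPM of the same 5 mice and inside the 43.3 to 111 CPM of the 48 mice of the other groups.

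Hepatocyte markers were present in all 3 mice, with summed levels of 132298, 126910 and 91870 CPM over 6 genes against 83371 to 117433 CPM in the other 5. The summed Kupffer cell markers were at 510, 398 and 211 CPM against 206 to 374 CPM, and those of stellate cells and fibroblasts at 548, 445 and 309 CPM against 281 to 610 CPM. Of the genes tested, 3.33%, 2.92% and 9.42% lay outside the range of all other groups in mice 4, 5 and 6, and 1.86% to 4.63% did in the other 5. Whether the hour of sampling or feeding differed for these mice was not tested.

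High Cry1 and low Dbp also met in single mice of other groups. In every group but high-dose semaglutide, the mouse with the most Cry1 was also the one with the least Dbp. These were vehicle mouse 7 (Cry1 16.5 and Dbp 50.03 CPM), chow mouse 6 (24.3 and 65.2), high-dose zalfermin mouse 4 (25.04 and 37.99), low-dose semaglutide mouse 8 (16.1 and 52.3) and low-dose zalfermin mouse 4 (10.9 and 110.04), beside combination mouse 6. Apart from the combination, each of these 5 mice also had the lowest Nr1d1 of its group. In high-dose semaglutide the mouse with the most Cry1 (14.4 CPM) had rank 5 from the lowest for Dbp (180 CPM).

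**Figure D2:**
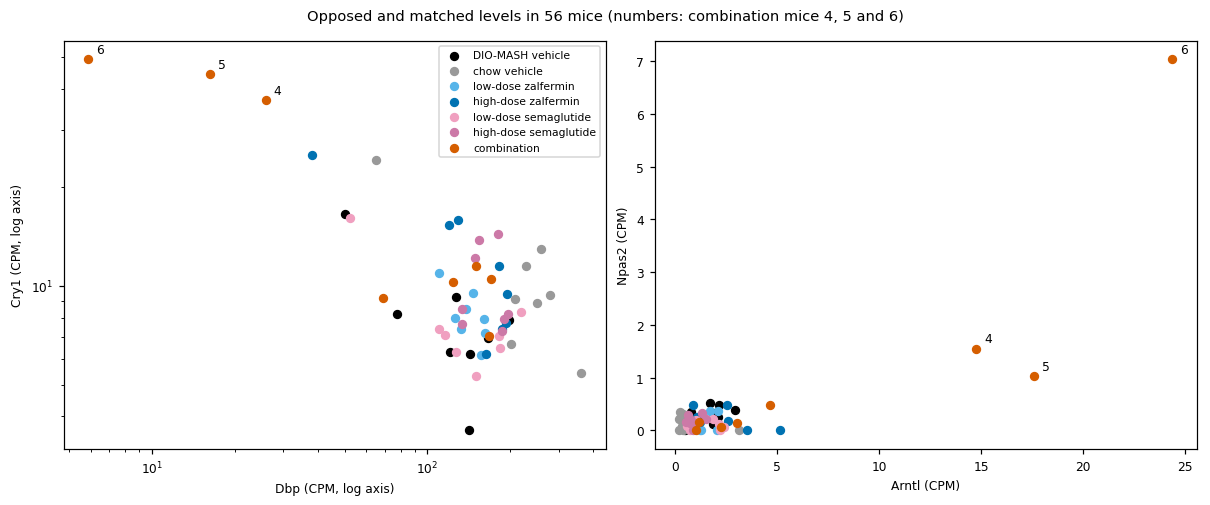
Left, Cry1 against Dbp (CPM, log axes), and right, Npas2 against Arntl (CPM, linear axes), each point a mouse coloured by group. Combination mice 4, 5 and 6 (numbered) extend the falling Dbp and Cry1 trend of the single low-Dbp mice of other groups, and hold the 3 highest values of Npas2 and of Arntl.

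The covariation was measured over mice after subtracting group means from log2 CPM, for all 45 pairs of members, with 100000 permutations of mice for each p and Benjamini-Hochberg adjustment over the 45 pairs. Since combination mice 4, 5 and 6 form a cluster of their own, values over the other 53 mice are given first. Over these, 18 pairs passed an adjusted p of 0.05 by Pearson's r, 12 positive and 6 negative, and 19 passed by Spearman's rho. Over all 56 mice 29 pairs passed by r and 25 by rho.

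Nr1d2 and Dbp were the most tightly coupled pair (r = 0.78 over 53 mice, adjusted permutation p = 5.0e-05; r = 0.89 over 56). Nr1d1 also rose and fell with Dbp (r = 0.70, adjusted permutation p = 5.0e-05; 0.75 over 56) and with Nr1d2 (r = 0.64, adjusted permutation p = 8.2e-05; 0.66 over 56). Cry1 ran against all 3 of them: r = -0.72 with Nr1d1 and -0.69 with Dbp (adjusted permutation p = 5.0e-05 for both), and -0.53 with Nr1d2 (adjusted permutation p = 3.0e-04), where 56 mice gave -0.79, -0.82 and -0.70. By rho over 53 mice Cry1 was at -0.60 with Nr1d1, -0.47 with Dbp and -0.33 with Nr1d2. The adjusted permutation p of these rho were 9.0e-05, 0.0012 and 0.036. The value 5.0e-05 is the smallest that these permutations gave for r after adjustment.

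A second set of positive pairs joined the Per genes and Tef, and was not separate from the first. Nr1d2 also varied with Tef over 53 mice (r = 0.43, adjusted permutation p = 0.0042) and with Per3 (r = 0.37, adjusted permutation p = 0.015). Over 56 mice these were 0.81 and 0.71. Over 53 mice Per3 varied with Tef (r = 0.64), Per2 with Tef (0.63) and with Per3 (0.61), and Per1 with Per3 (0.57) and Tef (0.50), with adjusted permutation p between 5.0e-05 and 3.1e-04 and all 5 positive over 56 mice too. Per2 also varied with Cry1 (r = 0.74 over 53 mice, 0.53 over 56) and against Nr1d1 (-0.63 and -0.52). Tef was coupled to Dbp over 56 mice (r = 0.69) but not over 53 by r (0.25, adjusted permutation p = 0.14), while rho passed there (0.36, adjusted permutation p = 0.024). Npas2, with a few reads a library, turned from r of -0.48 with Dbp over 56 mice to 0.11 over 53, and from 0.19 with Cry1 to -0.46 (adjusted permutation p = 0.0014). Clock passed with none of the others by r over 53 mice (smallest adjusted permutation p = 0.083).

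Within number series, Cry1 and Nr1d1 gave r of -0.53 in A (21 mice), -0.89 in B (13) and -0.88 in C (16) without the 3 mice, and Nr1d2 and Dbp gave 0.46, 0.93 and 0.90. Per3 and Tef gave 0.74, 0.77 and 0.81. Cry1 and Dbp gave -0.28 in A, -0.83 in B and -0.85 in C. In A this pair was thus weak without mouse 4 (r = -0.82 with it). Cry1 and Nr1d2 gave -0.21 in A, -0.71 in B and -0.87 in C. The signs of these pairs held in A, B and C, and series D had too few mice. Per2 and Tef did not keep their sign, with 0.90 in A, 0.50 in B and -0.23 in C. Per1 and Tef gave 0.63, 0.06 and 0.20. Per2 with Per3 (0.58, 0.50 and 0.20) and Per1 with Per3 (0.77, 0.18 and 0.55) stayed positive. Without the 2 mice farthest from the median of the first gene, r over 56 mice was -0.75 for Cry1 with Nr1d1, -0.78 for Cry1 with Dbp and 0.83 for Nr1d2 with Dbp.

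**Figure D3:**
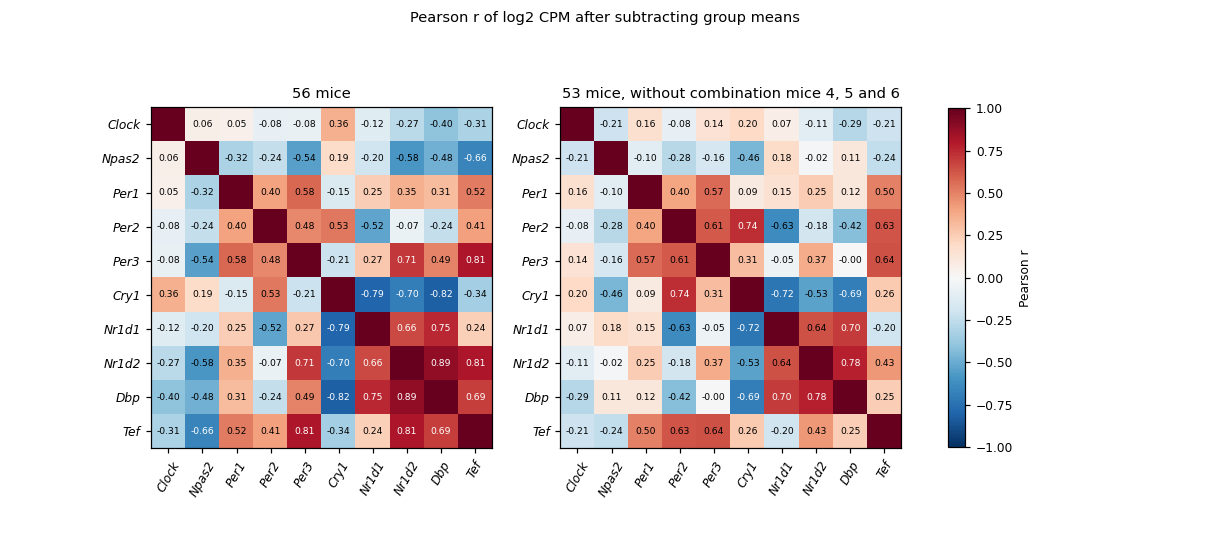
Pearson r between members (log2 CPM after subtracting group means) over all 56 mice (left) and over 53 mice without combination mice 4, 5 and 6 (right), on a scale from -1 (blue) to 1 (red). Nr1d1, Nr1d2 and Dbp form a positive block opposed to Cry1 in both panels, and the link of Dbp to Tef falls from 0.69 to 0.25.

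The genes most like a member were taken from the 11866 genes with a mean of at least 1 CPM, by r of the same centred values over 56 mice. Closest to Dbp were Ciart (r = 0.82), Fbxo21 (0.81), Npc1 (0.79), Arsa (0.77) and Tbc1d17 (0.75), and without the combination group Arsa was at 0.80 and the other 4 between 0.58 and 0.67. Arntl ran opposite to Dbp (r = -0.80 over 56 mice). These include combination mice 4, 5 and 6, with the highest Arntl and the lowest Dbp, and r without them was not taken. Closest to Per1 were Pim3 (0.73), Sugct (0.72), Mapk1ip1l (0.71), Slc38a2 (0.69) and Zhx2 (0.69), and these held at 0.67 to 0.72 without the combination group. For Npas2 the list was Smarcal1 (0.65), BC029722 (0.63), Smarca4 (0.62), Nek6 (0.60) and Tjp3 (0.59). Without the combination group these were at 0.44, 0.58, 0.16, 0.36 and 0.20. The mice share library depth and number series in all of these values, and they are descriptions.

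The chow comparison asks how the clock differed between lean livers and DIO-MASH livers. Per1, Dbp and Tef were higher in chow-fed mice and no member was lower, so 3 of 10 were called, where 55.4% of the 14105 genes were called in this comparison. The members' median log2 difference was 0.40, against -0.01 over all genes. In none of the 13 comparisons of 2 groups were the mice of both groups fully separated for any member. The share of all genes separated in this way is not given here, so this is a description only.

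Tef, which drives D-box genes, had its lowest, median and highest values at 124, 242 and 289 CPM in chow-fed mice and at 90.9, 136 and 167 CPM in DIO-MASH vehicle mice. All chow-fed mice but mouse 1 exceeded all vehicle mice. The log2 fold change was 0.80 ± 0.17 (SE), with adjusted p = 1.1e-04, and within series A, B, C and D the difference was 0.66, 0.50, 0.81 and 1.38.

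Per1, an early repressor of the loop that also answers glucocorticoid and cAMP signals, was at 22.4, 38.7 and 52.7 CPM in chow-fed mice and at 19.3, 26.1 and 29.2 CPM in DIO-MASH vehicle mice (lowest, median and highest). The groups overlapped at their lower ends. The log2 fold change was 0.62 ± 0.18 with adjusted p = 0.0031, and the difference was 0.41, 0.38, 0.66 and 0.80 within series A to D.

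Dbp was at 65.2, 239 and 362 CPM in chow-fed mice and at 50.03, 135 and 198 CPM in DIO-MASH vehicle mice. Chow mouse 6 lay between the 2 lowest vehicle mice, and the other 7 chow-fed mice lay above the highest vehicle mouse. The log2 fold change was 0.86 ± 0.36 with adjusted p = 0.039, and the difference had the same sign within series A (0.96), B (0.53), C (1.02) and D (1.16). The call was lost with number series as a covariate (log2 fold change 0.77, adjusted p = 0.074) and when any of chow mice 4, 5, 7 and 8 or vehicle mice 2, 3 and 7 was left out (adjusted p 0.051 to 0.087).

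The remaining members did not pass in the chow comparison. Log2 differences of 0.44 ± 0.33 for Cry1, 0.42 ± 0.43 for Nr1d1, 0.38 ± 0.27 for Per3 and 0.34 ± 0.24 for Nr1d2 were all positive, Per2 was at 0.10 ± 0.18 and Clock at -0.18 ± 0.15, with adjusted p from 0.23 to 0.68. Clock passed only without chow mouse 1 (log2 fold change -0.35, adjusted p = 0.036). Npas2, at 0 to 4 reads in chow-fed and 0 to 9 in vehicle mice, gave -0.98 ± 0.81 with adjusted p = 0.31.

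Other core clock genes, from a list of 14 of which 13 were tested, gave 3 higher, 2 lower and 8 not called in chow-fed mice. Ciart (log2 fold change 1.79), Cry2 (0.60), the second cryptochrome, and Rora (0.40) were higher. Csnk1e (-0.76), a kinase that marks PER proteins for degradation, and Arntl2 (-1.88), a low-expressed paralogue of Arntl, were lower. Arntl itself was at -1.06 ± 0.54 with adjusted p = 0.091, and Bhlhe40, Bhlhe41, Csnk1d, Fbxl21 and Btrc lay between -0.04 and 0.34 without passing. Hlf was higher (0.54, adjusted p = 2.6e-04) and Nfil3 was not called (0.25, adjusted p = 0.43).

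Of 12 clock-controlled liver genes 7 were higher and 1 was lower in chow-fed mice, with a median log2 difference of 0.83. The largest changes were in Upp2 (1.76), a uridine phosphorylase, and Lpin1 (1.61), a phosphatidate phosphatase. Of 7 glucocorticoid targets, 2 were higher, Tat (1.21) and Klf9 (0.68). Of 11 fasting and feeding genes 2 were higher and 4 lower, led by Pdk4 (-2.37) and Igfbp1 (-1.37), and of 8 temperature-responsive genes 1 was higher and 2 lower, Hspa1a (-0.91) and Hsp90aa1 (-0.56). Each of these counts stands beside the 55.4% of all genes called.

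Cell markers moved in the same comparison. The summed level of the 6 hepatocyte markers was 144033 to 232121 CPM in chow-fed and 60568 to 82959 CPM in DIO-MASH vehicle mice, and that of the 6 stellate cell and fibroblast markers was 121 to 206 CPM against 771 to 1348 CPM. All 6 macrophage markers were lower, as were 2 of 4 cholangiocyte, 2 of 2 T cell and 3 of 3 B cell markers. Of 6 Kupffer cell markers 3 were higher and 1 was lower. Of 4 sinusoidal endothelial markers 1 was higher and 2 were lower. These counts stand beside the 55.4% of all genes called. The part of these markers in the higher Per1, Dbp and Tef was not tested.

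**Figure D4:**
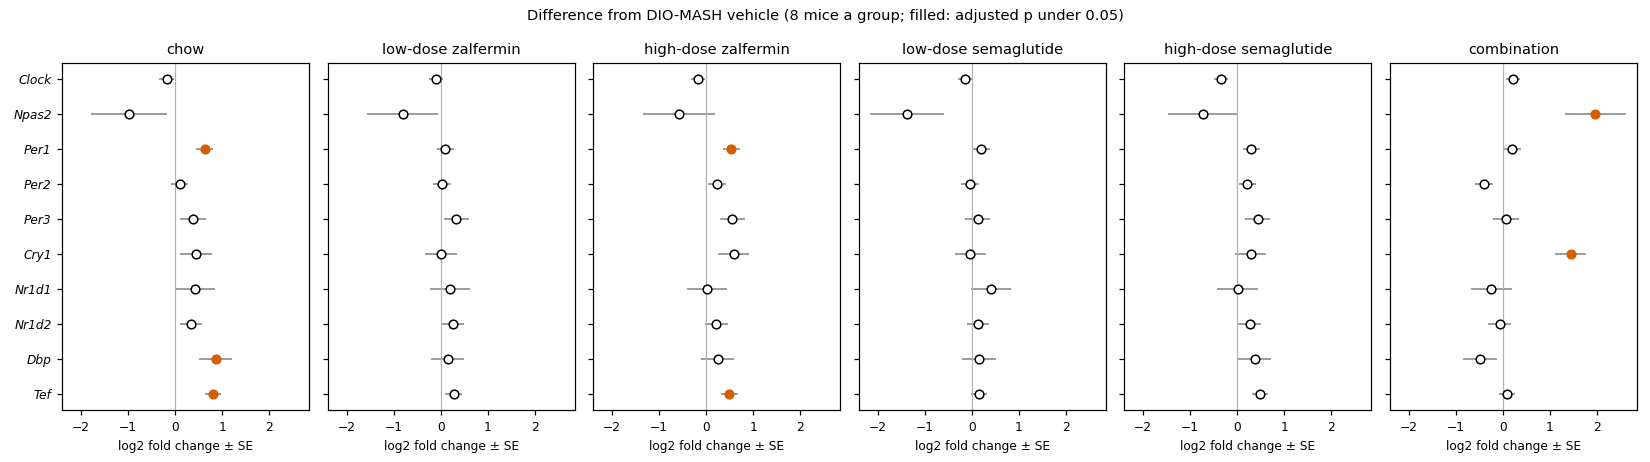
Log2 fold change (edgeR, ± SE) of each member against DIO-MASH vehicle in 6 comparisons of 8 mice with 8, with filled points where the adjusted p is under 0.05. The 7 filled points are Per1, Dbp and Tef for chow, Per1 and Tef for high-dose zalfermin, and Npas2 and Cry1 for the combination.

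High-dose zalfermin shared vehicle mice with the chow comparison and gave 2 calls, where 17.2% of all genes were called. Per1 was at 24.04, 39.4 and 46.2 CPM (lowest, median and highest), with a log2 fold change of 0.54 ± 0.18 and adjusted p = 0.032. The difference was 0.52 in series A, 0.77 in B and 0.06 in C. Tef was at 167, 187 and 225 CPM, with a log2 fold change of 0.49 ± 0.17 and adjusted p = 0.040, and differences of 0.68, 0.33 and 0.34 in A, B and C. Only the lowest treated mouse reached down to the highest vehicle mouse, at 167 CPM in both.

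The calls of high-dose zalfermin moved with the fit. In a fit of only the 2 groups both had lower adjusted p (0.0015 for Tef and 0.0096 for Per1). Tef was lost with number series as a covariate (adjusted p = 0.057) and without any of vehicle mice 1, 2, 4, 7 and 8 or treated mice 2, 3, 5, 6 and 8 (adjusted p 0.050 to 0.092). Per1 was lost without any of vehicle mice 2 and 8 or treated mice 2, 4, 5 and 6 (adjusted p 0.059 to 0.070). Per3 (0.55 ± 0.27, adjusted p = 0.15, and 0.048 in a fit of only these 2 groups) and Cry1 (0.59 ± 0.33, adjusted p = 0.23) did not pass, while Dbp (0.24), Nr1d2 (0.21) and Nr1d1 (0.02) were nearer to 0. Among the other core clock genes Cry2 was higher (0.37, adjusted p = 0.038) and Arntl2 lower (-1.56, adjusted p = 0.035), and Nfil3 was higher (0.74, adjusted p = 0.039). Of the 12 clock-controlled liver genes 5 were higher and 1 lower, of the 7 glucocorticoid targets 2 were higher, of the 11 fasting and feeding genes 2 were higher and 1 lower. Of the 8 temperature-responsive genes the nearest to a call was Rbm3 (-0.42, adjusted p = 0.10). These counts stand beside the 17.2% of all genes called.

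Cell markers moved in this comparison too. All 6 hepatocyte markers were higher (summed level 79947 to 130601 CPM, against 60568 to 82959 CPM in vehicle mice), 4 of 6 macrophage markers were lower (69.6 to 400 CPM against 325 to 713 CPM) and 2 of 6 stellate cell and fibroblast markers were lower (245 to 575 CPM against 771 to 1348 CPM). Of 6 Kupffer cell markers 1 was higher. These counts stand beside the 17.2% of all genes called. The part of these markers in the higher Per1 and Tef was not tested.

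Low-dose zalfermin called 0 members, and none had an unadjusted p under 0.05, where 0.468% of all genes were called. The log2 differences ran from -0.80 (Npas2) to 0.33 (Per3), and the smallest adjusted p was 0.57, for Tef (0.27 ± 0.17). High against low dose of zalfermin called 0 members (1.84% of genes), with 1 unadjusted p under 0.05, for Per1 (0.44 ± 0.18, adjusted p = 0.23). Its median was 24.6 CPM at the low dose and 39.4 CPM at the high dose.

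Low-dose semaglutide called 0 members, with no unadjusted p under 0.05, and edgeR called 0 of 14105 genes (0%), although 1222 had an unadjusted p under 0.05 and DESeq2 called 32. Member differences ran from -1.37 ± 0.79 (Npas2, adjusted p = 0.64) to 0.41 ± 0.43 (Nr1d1, adjusted p = 0.82). High-dose semaglutide called 0 members (2.43% of genes), with unadjusted p under 0.05 for Tef (0.48 ± 0.17, adjusted p = 0.13) and Clock (-0.34 ± 0.15, adjusted p = 0.24). Tef was at 150, 182 and 233 CPM there, and a fit of only these 2 groups called it (adjusted p = 0.033). Between the semaglutide doses 0 members and 0 genes (0%) were called by edgeR and by DESeq2, with 549 genes and no member at an unadjusted p under 0.05. High-dose zalfermin against high-dose semaglutide called 0 members (0.447% of genes), none at an unadjusted p under 0.05. DESeq2 called 0 members in each of these comparisons as well.

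The combination asks whether low doses given together changed the clock beyond what each did alone. Against DIO-MASH vehicle, Cry1 and Npas2 were higher and no member was lower, 2 of 10 members where 20.9% of genes were called. Cry1 was at 7.02, 10.98 and 49.1 CPM (lowest, median and highest) in the combination and at 3.63, 7.41 and 16.5 CPM in vehicle mice. The log2 fold change was 1.44 ± 0.33 with adjusted p = 0.0010. Cry1 stayed called in each of 24 fits that left out 1 mouse (1.18 to 1.69). These 24 include fits without a low-dose semaglutide mouse, which belongs to neither group of this comparison.

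Without combination mice 4, 5 and 6 the Cry1 difference was 0.25 ± 0.29 with adjusted p = 0.60. Within number series it was 0.88 in A, which holds mouse 4, 2.70 in B, which holds mice 5 and 6, and -0.34 in C.

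Npas2 gave 0, 1 or 2 reads in combination mice 1, 2, 3 and 8, 5 reads in mouse 7, and 25, 10 and 54 in mice 4, 5 and 6. The log2 fold change against vehicle was 1.96 ± 0.65 with adjusted p = 0.024, and 0.67 with adjusted p = 0.45 when mouse 6 alone was left out. Without mice 4, 5 and 6 its sign turned, to -0.94 ± 0.71 with adjusted p = 0.38. Within series the difference was -0.64 in A, 2.91 in B and 0.65 in C.

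Dbp, Nr1d1 and Nr1d2 were not called, with or without the 3 mice. Dbp was at 5.86, 96.4 and 171 CPM in the combination, with a log2 difference from vehicle of -0.48 ± 0.36 (adjusted p = 0.35), and 0.09 ± 0.29 (adjusted p = 0.86) without the 3 mice. In series B the difference was -3.99, in A -0.03 and in C 0.21. Nr1d1 moved from -0.25 ± 0.43 to 0.28 ± 0.44 and Nr1d2 from -0.07 ± 0.24 to 0.37 ± 0.17 when the 3 were left out.

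Tef was called only without the 3 mice. With all 8 mice its difference was 0.09 ± 0.17 (adjusted p = 0.74), and without mice 4, 5 and 6 it was 0.44 ± 0.13 (adjusted p = 0.016), when it became the 1 member called, where 17.1% of 14096 genes were called. Mice 4, 5 and 6 had 108, 94.6 and 35.3 CPM of Tef, and the other 5 combination mice had 159 to 199 CPM. Leaving out the 3 lowest mice, chosen after their values were seen, raises the difference by construction. The Tef call without them is therefore a description only. Per1 (0.42 ± 0.19, adjusted p = 0.13) and Per3 (0.47 ± 0.25, adjusted p = 0.19) did not pass without the 3 mice. Per2 gave similar differences with all 8 mice (-0.40 ± 0.19, adjusted p = 0.12) and without the 3 (-0.36 ± 0.22, adjusted p = 0.26).

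**Figure D5:**
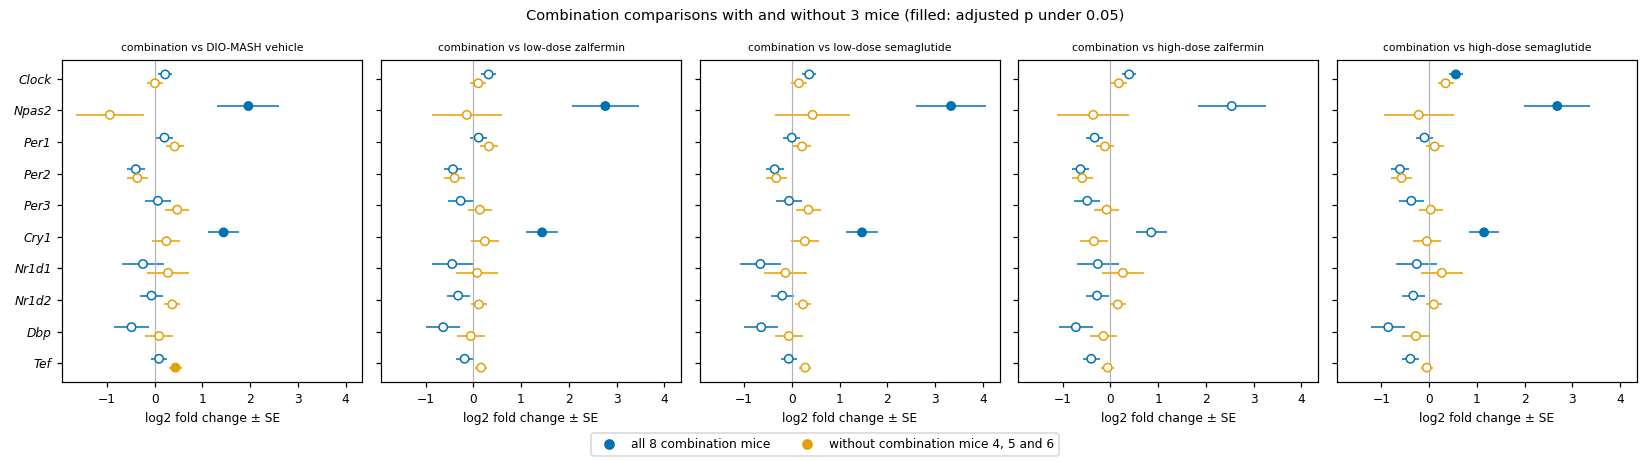
Log2 fold change (edgeR, ± SE) of each member in the 5 combination comparisons, with all 8 combination mice (blue) and without mice 4, 5 and 6 (orange), filled where the adjusted p is under 0.05. With all 8 mice Cry1 and Npas2 stand to the right in every panel, and without the 3 mice the only filled point is Tef against DIO-MASH vehicle. The 3 mice were chosen after their values were seen and had the lowest Tef of the group.

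The comparisons of the combination with single drugs share the 8 combination mice. Against low-dose zalfermin (6.62% of genes called) Npas2 was higher by 2.77 ± 0.70 and Cry1 by 1.44 ± 0.33 on the log2 scale (adjusted p = 0.0094 and 0.0038). Against low-dose semaglutide (4.21% of genes) the values were 3.33 ± 0.73 and 1.47 ± 0.33 (adjusted p = 0.0038 and 0.0043). Against high-dose semaglutide (1.89% of genes) Clock (0.56 ± 0.15), Npas2 (2.68 ± 0.69) and Cry1 (1.15 ± 0.32) were higher, with adjusted p = 0.037, 0.024 and 0.047. Against high-dose zalfermin (0.503% of genes) 0 members were called by edgeR or DESeq2, with 6 at an unadjusted p under 0.05, led by Npas2 (2.54 ± 0.71, adjusted p = 0.082) and Per2 (-0.63 ± 0.19, adjusted p = 0.11). Npas2 passed there without combination mouse 1 or mouse 2 (adjusted p from 0.033).

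Clock, at 19.4, 33.04 and 45.1 CPM in the combination and 19.8, 21.7 and 28.4 CPM in high-dose semaglutide, was called only in that comparison. The call was lost without any of high-dose semaglutide mice 1, 2, 4, 5, 6, 7 and 8 or combination mice 4, 5, 6 and 8 (adjusted p 0.050 to 0.107). Cry1 was lost there without any of high-dose semaglutide mice 1, 2, 5, 6, 7 and 8 or combination mice 4, 5 and 6 (adjusted p 0.054 to 0.184), and Npas2 without combination mouse 6 or high-dose semaglutide mouse 6 (adjusted p = 0.339 and 0.051). Without combination mouse 6, Npas2 was also lost against low-dose zalfermin (1.47, adjusted p = 0.18) and low-dose semaglutide (2.04, adjusted p = 0.076). Per2, at -0.61 ± 0.19 against high-dose semaglutide (adjusted p = 0.072), passed without mouse 1 of that group (adjusted p = 0.049). With number series as a covariate Per2 was lower in that comparison (adjusted p = 0.035) and Npas2 was lost (2.32 ± 0.68, adjusted p = 0.054). DESeq2 called Per2 too (adjusted p = 0.040), with Clock and Cry1, and gave Npas2 no adjusted p in that comparison or against high-dose zalfermin. In fits of only the 2 groups compared, which estimate the spread from 16 mice, Npas2 was not called against vehicle (adjusted p = 0.102), low-dose zalfermin (0.087), low-dose semaglutide (0.073) or high-dose semaglutide (0.180), nor Cry1 against low-dose (0.064) or high-dose semaglutide (0.182), nor Clock against high-dose semaglutide (0.052). Per2 was lower in such fits against low-dose zalfermin (adjusted p = 0.037) and high-dose semaglutide (0.020).

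Without combination mice 4, 5 and 6, edgeR called 0 members against low-dose zalfermin (4.75% of genes called), low-dose semaglutide (2.40%), high-dose zalfermin (0.0355%) and high-dose semaglutide (0.525%), with smallest adjusted p of 0.341, 0.270, 0.350 and 0.263. Cry1 differences were then 0.24, 0.27, -0.34 and -0.05, and Clock differences 0.11, 0.15, 0.18 and 0.35. The low-dose interaction, which is the combination minus both low doses plus vehicle on the log2 scale, called 0 members by edgeR and by DESeq2 and 2 genes in all (0.0142%). It had unadjusted p under 0.05 for Npas2 (4.14 ± 1.06, adjusted p = 0.22), Cry1 (1.47 ± 0.46, adjusted p = 0.42) and Clock (0.47 ± 0.22, adjusted p = 0.70), and the values were 1.24 ± 0.99 for Npas2 and 0.27 ± 0.39 for Cry1 without the 3 mice.

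Of the 13 other core clock genes tested, the combination had 1 higher and 1 lower against DIO-MASH vehicle, where 20.9% of all genes were called. Arntl was higher (2.27 ± 0.48, adjusted p = 4.6e-04) and Bhlhe41 lower (-0.997 ± 0.313, adjusted p = 0.017), while Rora (0.42, adjusted p = 0.056), Bhlhe40 (0.36, adjusted p = 0.098), Cry2 (0.31, adjusted p = 0.071) and Arntl2 (-1.23, adjusted p = 0.073) did not pass. Ciart, Csnk1d, Csnk1e, Fbxl21 and Btrc lay between -0.20 and 0.06. Nfil3 was higher (1.08 ± 0.26, adjusted p = 0.0016) and Hlf was not called (0.09). Without mice 4, 5 and 6 neither Arntl, Bhlhe41 nor Nfil3 was called. Of the 13 other core clock genes 2 were then higher, among them Cry2 (0.44, adjusted p = 0.023), where 17.1% of all genes were called.

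Among the 12 clock-controlled liver genes the combination had 2 higher, Lpin1 (0.94) and Por (0.61), the reductase that serves cytochromes P450. Without the 3 mice 3 were higher, Lpin1, Por and Upp2, and Elovl3 was lower. Of the 7 glucocorticoid targets the nearest to a call with all mice was Tat (0.71, adjusted p = 0.067), and without the 3 mice Klf9 was higher (0.65). Of the 11 fasting and feeding genes Ppargc1a was higher (0.78, and 0.88 without the 3 mice). Of the 8 temperature-responsive genes Hspa1b (-1.33) and Hspa1a (-1.19) were lower, and only Hspa1b without the 3 mice (-1.36). These counts stand beside 20.9% of all genes called with all 8 mice and 17.1% without the 3.

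Cell markers differed between all 8 combination mice and vehicle mice as well. Of 6 hepatocyte markers 5 were higher (summed level 83371 to 132298 CPM against 60568 to 82959 CPM), of 6 Kupffer cell markers 3 were higher, of 6 macrophage markers 4 were lower (87.7 to 406 CPM against 325 to 713 CPM) and of 6 stellate cell and fibroblast markers 5 were lower (281 to 610 CPM against 771 to 1348 CPM). Of 3 B cell markers 1 was lower. These counts stand beside 20.9% of all genes called. The part of these markers in the member results was not tested.

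Number series was tested as a factor beside group, to see whether the runs of sample numbers differed in the clock genes. It called 1533 of 14105 genes (10.9%) and 2 of the 10 members, Per2 (adjusted p = 0.037) and Per3 (adjusted p = 0.047). Per2 was at 9.03, 19.8 and 33.2 CPM in series A, 15.0, 22.9 and 41.97 CPM in B, 14.8, 26.7 and 37.7 CPM in C and 12.4, 15.1 and 19.8 CPM in D (lowest, median and highest). With group in the fit, D lay 0.49 below A and C 0.30 above it on the log2 scale, and for Per3 the values were -0.80 and 0.33.

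The 3 mice of series D decided both calls. Without them Per2 had an adjusted p of 0.196 and Per3 of 0.208, and with only the 6 groups on the AMLN diet they had 0.109 and 0.215. Cry1 passed only without combination mice 4, 5 and 6 (adjusted p = 0.046). Nr1d1, Nr1d2 and Dbp gave adjusted p of 0.63, 0.34 and 0.51 for series. Number series as a covariate left Per1 and Tef called for chow, Per1 for high-dose zalfermin and Npas2 and Cry1 for the combination against vehicle.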

How the data were processed

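Liver RNA of 56 mice (8 in each of 7 groups) was analysed from the deposited table of gene counts. Per the authors, stranded mRNA libraries were sequenced on an Illumina instrument and aligned to GRCm38 with STAR, and the counts they deposited are raw reads per gene. The submitters' processing notes also list Trim Galore 0.6.4 and Salmon 1.9.0. The program that counted reads is not given in the sources used here. One low-dose semaglutide mouse that the authors excluded is not marked in the labels, so all mice were used. Groups came from the labels. Per the authors, mice were housed singly from the biopsy operation on, before dosing began. Whether mice of a group are littermates or shared a cage before that is not stated. The p-values measure the spread between these mice.

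The filter asked for at least 5 reads in at least 3 mice. The analysis was made in R 4.3.3 with edgeR 4.0.16 (TMM, 1 fit of all 7 groups, quasi-likelihood F tests, Benjamini-Hochberg adjustment), with DESeq2 1.42.0 as an alternative. Each standard error is the log2 fold change divided by the root of F. Log2 CPM used a prior count of 2. The other alternatives were DESeq2 size factors, 2 other filters, number series as a covariate, only the groups compared, and each mouse left out. Between libraries of 5228187 and 20885786 reads, a gene at 1 CPM has about 5 to 21 reads, and intervals from counts cover counting error only. No 2 mice of a group agreed within sampling noise (smallest chi-square per degree of freedom 7.57). Scripts were tested on simulated data.

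The members, the gene lists and the tests were chosen with earlier results of these data known. Named genes outside the members are the core clock and PAR bZIP genes measured, of which some are not reported here, the 2 called genes with the largest change of each other list in the chow and combination comparisons, and the 5 genes most like Dbp, Per1 and Npas2. Genes named beyond these were chosen after their values were seen. Positions are from GENCODE vM21 on GRCm38. The published analysis used DESeq2, and body weight as a covariate in part of it, which was not used here.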

Additional observations from a re-analysis of the deposited data

Results flagged for a closer look

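In 7 of the 70 groups of 8 mice (10 genes by 7 groups), the highest or lowest mouse lay far from the nearest other one, with a gap above Dixon's critical value for 8 mice. For independent, normally spread values about 1 in 20 groups would be flagged. CPM need not be normally spread and the 10 genes share the same mice, so no chance rate is drawn here. For Cry1 this was the highest mouse of 3 groups, all of number series C: chow mouse 6 (24.3 CPM, next 12.97), DIO-MASH vehicle mouse 7 (16.5, next 9.28) and low-dose semaglutide mouse 8 (16.1, next 8.33). Each of these 3 mice also had the lowest Dbp of its group.

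Combination mouse 6 was far above the others for Npas2 (7.03 CPM, next 1.55). Clock was high in high-dose semaglutide mouse 3 (28.4 CPM, next 23.2), and Per1 was high in low-dose semaglutide mouse 6 (44.2 CPM, next 31.2). Tef was low in chow mouse 1 (124 CPM, next 213).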

How the results depend on the processing

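Per1 and Tef for chow and Cry1 for the combination against vehicle, low-dose zalfermin and low-dose semaglutide kept their calls in every fit that left out 1 mouse. The 3 calls for chow became 2 with number series as a covariate, 2 to 4 without 1 mouse and 3 in the other alternatives. For high-dose zalfermin the 2 calls became 1 with number series as a covariate, 3 in a fit of only the 2 groups and 0 to 2 without 1 mouse. For high-dose semaglutide, 1 member (Tef) was called in a fit of only the 2 groups. For the combination, 2 calls against vehicle became 1 with the stricter filter (10 reads in 8 mice, which drops Npas2), 1 in a fit of only the 2 groups and 1 to 2 without 1 mouse. Against low-dose zalfermin 2 became 1 with the stricter filter and 1 to 2 without 1 mouse. Against low-dose semaglutide 2 became 1 with the stricter filter, 0 in a fit of only the 2 groups and 1 to 2 without 1 mouse. Against high-dose semaglutide 3 became 1 in a fit of only the 2 groups and 0 to 3 without 1 mouse, and against high-dose zalfermin 0 became 0 to 1 without 1 mouse. The 2 members called for number series became 0 without series D and 0 with only the AMLN groups. The cause of these shifts was not tested.

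Without combination mice 4, 5 and 6, chosen after seeing the data, the calls were 1 against vehicle and 0 against each low dose and high-dose semaglutide. These fits describe the values and cannot test the calls. Npas2 reversed to -0.94 against vehicle, -0.13 against low-dose zalfermin, -0.36 against high-dose zalfermin and -0.22 against high-dose semaglutide, and Cry1 to -0.34 against high-dose zalfermin, where it was not called, and -0.046 against high-dose semaglutide. Pairs of correlated members went from 29 to 18, and r reversed to 0.11 for Npas2 with Dbp, -0.0041 for Per3 with Dbp and 0.26 for Cry1 with Tef.

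No paired analysis was made, because the labels name no pairs of mice across groups. In places consecutive sample numbers ran through the groups in the same order. Whether that order marks blocks of mice is not stated and was not tested. Npas2, at 0 to 9 reads outside these 3 mice, is limited by depth.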
